A study of Mus musculus with 6 samples.

Results

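The genes described are 9 mouse genes of retinoic acid signalling: the retinoic acid receptors Rara, Rarb and Rarg, the retinoid X receptors Rxra, Rxrb and Rxrg, the cellular retinoic acid binding proteins Crabp1 and Crabp2, and Cyp26b1, an enzyme that degrades retinoic acid. They were taken by gene symbol in the array's probe annotation, detected or not, which gave 15 of 45281 probes and 9 of 19057 named genes. They were measured in samples labelled motor neurons, from the cervical spinal cord. These were sorted as fluorescent cells from mouse embryos that carry the HB9::GFP reporter, at stage e12.5. The stock mixed the strains c57/bl6, balbc and fvb. Of the 6 samples 3 are labelled Hox5 mutant, and per the series title these combine a floxed Hoxa5 allele recombined by Olig2-driven Cre with a null allele of Hoxc5. The other 3 are wild type and served as the comparison. Olig2 is active in motor neuron progenitors, so Hoxa5 would be deleted in that lineage and Hoxc5 in every cell, while Hoxb5 is not targeted. Each array is an Illumina bead array read in 1 colour and carries 1 sample, and its brightness values are given on a log2 scale after background correction and quantile normalization. Neither pooling of embryos nor the Cre status of the wild-type embryos is stated in the labels. The p-values therefore cover the spread among these 6 samples and no more.

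Retinoic acid is made from vitamin A in the mesoderm beside the neural tube and, later, in some spinal motor neurons. Inside a cell the Crabp proteins carry it, and it binds retinoic acid receptors that sit on DNA as pairs with a retinoid X receptor. The pair recognises direct repeats of a hexamer related to AGGTCA, often with 5 bases between the repeats (a DR5 element), and switches neighbouring genes on when the ligand is present. Cyp26 enzymes remove the ligand and so bound the territory of the signal. In the hindbrain and cervical spinal cord the pathway sets the expression of anterior Hox genes, and in the spinal cord it also takes part in forming motor neurons and their columns.

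A DR5 element was looked for in RefSeq promoter windows (build GRCm38.p6), which run from 250 bases before to 50 bases after a gene's start, on both strands and allowing A or G as the first base and G or T as the third base of each hexamer. The windows of 8 of the 9 genes were in the table, 15 windows in all, and no window for Crabp2. Only that of Rarb held the element, from base −53 to base −37 before the start. Across all genes 32 of 32851 windows, or 0.0974%, held a DR5 element, and 1 of them belonged to Cyp26a1, the sister enzyme of Cyp26b1. Repeats spaced by 1 or 2 bases were found in 0.222% and 0.268% of all windows and in 0 of the 15. The 100 bases before the start are shown for both genes because they carry the sequence through which a receptor pair could act on the gene of a receptor and the gene of a degrading enzyme. Capitals mark the DR5 element. In Cyp26a1 it lies on the opposite strand, from base −32 to base −16. The Rarb stretch is chr14:16575477-16575576 on the minus strand and the Cyp26a1 stretch is chr19:37697708-37697807 on the plus strand.
Rarb: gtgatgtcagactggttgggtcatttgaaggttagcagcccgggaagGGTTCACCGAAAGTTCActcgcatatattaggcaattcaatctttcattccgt
Cyp26a1: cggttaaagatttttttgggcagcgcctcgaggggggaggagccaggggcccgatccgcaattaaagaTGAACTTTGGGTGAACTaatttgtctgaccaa
A match to these letters describes the sequence and is not a measurement of binding in these cells.

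One array has to be named before the results. Mutant replicate 1 correlated with the other arrays at a median of 0.952 across tested features, against 0.983 to 0.986 for each of the other 5 arrays, and it was the highest or lowest array for 61.4% of all features. Genes of blood, mesenchyme and endothelium were high on it, with medians of 4.48, 3.54 and 2.59 above the wild-type mean on the log2 scale over the 5, 5 and 4 genes measured of the 11, 11 and 10 listed. On mutant replicates 2 and 3 the blood median was −0.22 and 0.047, the mesenchyme median 0.15 and −0.63, and the endothelium median 0.073 and −0.41. The summed intensity of the blood markers was 72785, 2222 and 3052 on mutant replicates 1 to 3, against 10542, 1457 and 1291 on the wild-type arrays. For the mesenchyme markers it was 16386, 3190 and 1159 against 3548, 1470 and 2685, and for the endothelial markers 1884, 344 and 257 against 393, 245 and 323. The blood marker Gata1, the mesenchyme marker Postn and the endothelial marker Tie1 were detected on no array. Motor neuron markers were measured for 10 of 11 genes, the homeobox genes Mnx1, Isl1, Lhx3 and Lhx4 and the cholinergic genes Chat and Slc18a3 on all 6 arrays. They summed to 1887, 5268 and 3027 on the mutant arrays and 4723, 4624 and 4003 on the wild-type arrays. Their medians relative to the wild-type mean were −0.65, 0.16 and −0.55 on the mutant arrays and −0.026, 0.0083 and −0.041 on the wild-type arrays. Low values were thus not confined to mutant replicate 1. Lhx4, the brightest of the list on the wild-type arrays, was at 6.62, 11.07 and 9.80 against 10.98, 10.67 and 10.14. Interneuron markers, measured for 11 of 12 genes, summed to 14127, 28333 and 27723 on the mutant arrays. On the wild-type arrays they summed to 25961, 30853 and 26661. They thus summed higher than the motor neuron markers on every array, and the values below cannot be assigned to motor neurons alone. Sums over different probes do not measure shares of cells. In such sorted bulk samples, fewer cells of a type and less RNA per cell cannot be told apart. Results below are therefore given with and without mutant replicate 1. Wild-type replicate 1 was also high for blood, at a median of 1.89, and for progenitor markers, at 0.67. It stays in the fits without mutant replicate 1.

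**Figure D1:**
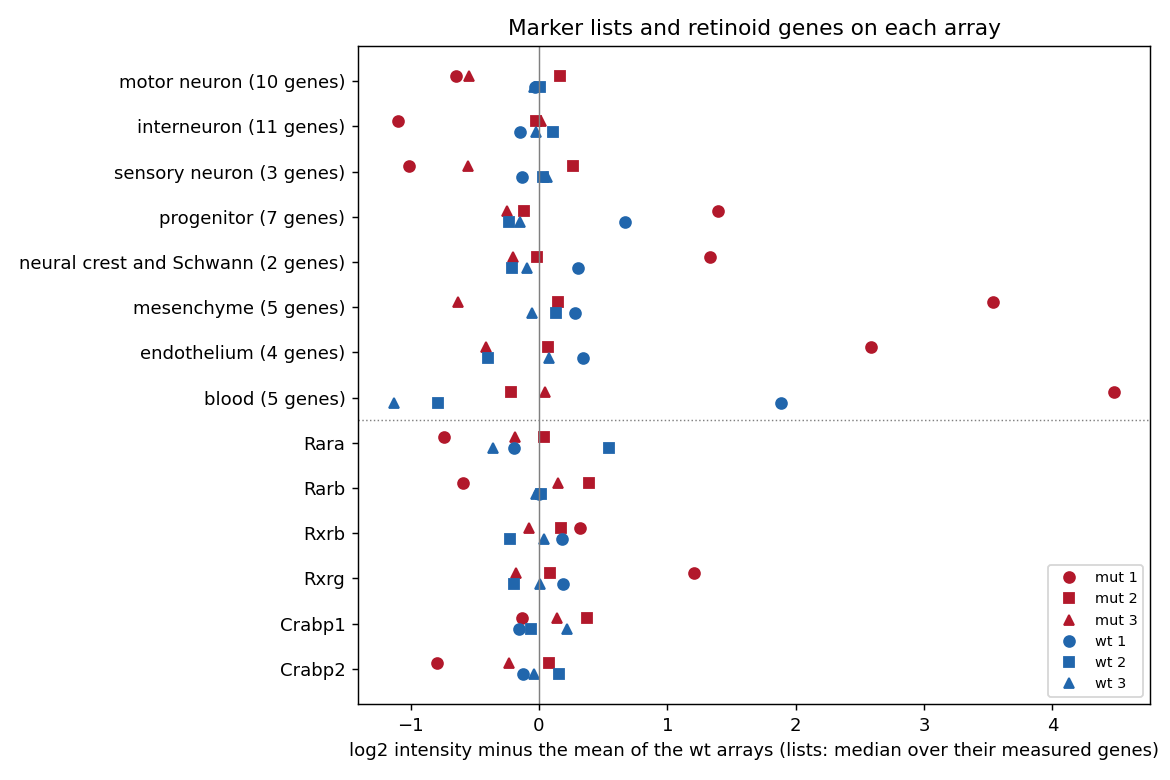
Each row shows the 6 arrays (mut in red, wt in blue) as log2 intensity minus the mean of the wt arrays, for marker lists (the median over their measured genes) above the dotted line and for the 6 tested retinoid genes below it. Mutant replicate 1 lies far right for blood, mesenchyme and endothelium, left for motor neuron and interneuron lists, right for Rxrg and left for Rara, Rarb and Crabp2. Mutant replicate 3 also lies left for the motor neuron list.

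The targeted paralogs did not settle the genotype. Hoxa5 stood at 13.15, 13.81 and 13.67 on the arrays labelled mutant and at 14.03, 13.99 and 13.94 on the wild-type arrays. Its difference was −0.45 (95% interval −0.92 to 0.027), and −0.24 without mutant replicate 1. Hoxc5 stood at 6.58, 7.65 and 7.71 against 6.47, 6.59 and 6.68, with mutant replicate 1 inside the wild-type range. It was higher, not lower, by 0.73 (0.0025 to 1.47), and by 1.10 (0.75 to 1.45) without mutant replicate 1. Hoxb5, not targeted, differed by −0.29 (−0.86 to 0.27), and by −0.15 without mutant replicate 1. None passed, the lowest limma adjusted p in these fits being 0.588, for Hoxc5 without mutant replicate 1. The labels do not say whether these probes lie inside the deleted sequence. Every direction below therefore rests on the label, and "mutant" means an array so labelled.

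The main comparison asks whether retinoid receptors, carriers and the degrading enzyme differ in level between arrays labelled Hox5 mutant and wild-type arrays. No member passed the test. Of the 9 genes, 6 had a probe detected on at least 3 of the 6 arrays and were tested: Rara, Rarb, Rxrb, Rxrg, Crabp1 and Crabp2. Rarg, Rxra and Cyp26b1 were at or near background. Of the 6 tested, 0 passed an adjusted p of 0.05 with limma, where 0% of all 13638 features did, and 0 had an unadjusted p under 0.05, where 1.83% of all features did. The 3 mutant and the 3 wild-type values overlapped for all 6, whereas they did not overlap for 5.51% of all features. By the brightest probe of each gene, higher and lower values were split evenly, 3 and 3. The median difference was 0.055 (mutant minus wild type) beside −0.014 over all features. Over the 10 kept probes of these genes 7 were lower and 3 higher, both with and without mutant replicate 1. Without mutant replicate 1, again 0 of the 6 genes passed, where 0% of all features passed and 2.39% had an unadjusted p under 0.05. The interval of each difference is given below, since a p that misses the threshold does not show that the groups are alike.

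Crabp1 and Crabp2 bind retinoic acid in the cytoplasm. Crabp2 hands its ligand to the receptors, and Crabp1 is linked to holding and turnover of the ligand. Crabp1 measured 11.08, 11.59 and 11.36 on the mutant arrays and 11.06, 11.15 and 11.43 on the wild-type arrays. The groups overlapped, with mutant replicate 2 above every wild-type array and with wild-type replicate 1 and mutant replicate 1 lowest. Its mean was 11.34 ± 0.253 in mutant and 11.21 ± 0.194 in wild-type samples (SD, n = 3 each), a difference of 0.13 with a 95% confidence interval of −0.32 to 0.58 (limma adjusted p = 0.997). In linear terms this is a mutant over wild-type ratio of 1.09, with an interval of 0.801 to 1.49. Without mutant replicate 1 the difference was 0.26 (−0.17 to 0.69), and without mutant replicate 2 it was 0.0056.

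Crabp2 measured 8.60, 9.47 and 9.16 on the mutant arrays and 9.27, 9.55 and 9.36 on the wild-type arrays. Mutant replicate 1 was the lowest array, and mutant replicate 2 lay within the wild-type range. The means were 9.08 ± 0.441 in mutant and 9.39 ± 0.144 in wild-type samples (SD, n = 3 each), a difference of −0.31 (95% interval −0.88 to 0.26; limma adjusted p = 0.997). Leaving out mutant replicate 1 brought it to −0.074 (−0.49 to 0.34), so that most of the difference came from that array. Its deposited, non-normalized intensities were 470.6, 813.6 and 729.1 on the mutant arrays and 777.5, 714.4 and 669.5 on the wild-type arrays. The blood, mesenchyme and endothelium markers that were high on that array stand above, and their part in the low Crabp2 value was not tested.

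**Figure D2:**
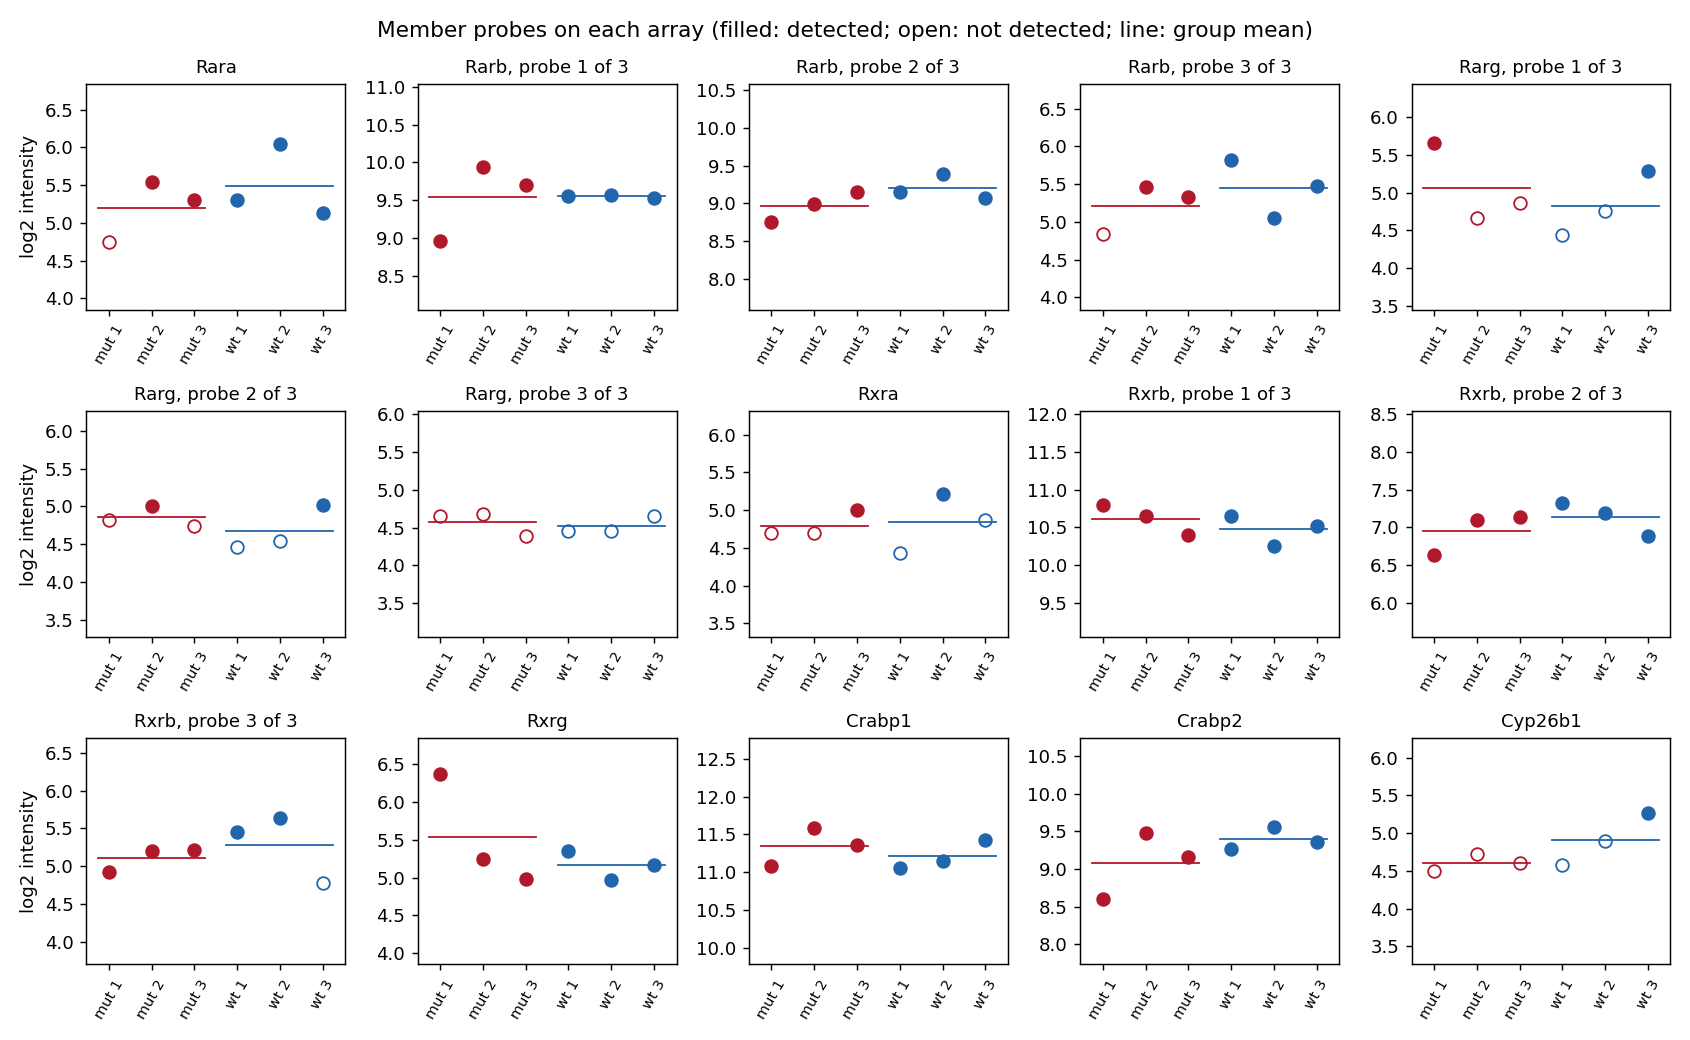
Normalized log2 intensity (vertical axis, spanning 3 log2 units in every panel) of the 15 probes on mutant replicates 1 to 3 (red) and wild-type replicates 1 to 3 (blue), with filled points where the probe was detected at p under 0.05 and lines at group means. Crabp1, Crabp2, Rxrb probes 1 and 2 and Rarb probes 1 and 2 are detected on every array, and Rarg, Rxra and Cyp26b1 on at most 2.

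Rarb encodes the receptor that is itself a classical target of retinoic acid, through the DR5 element shown above. Its brightest probe measured 8.96, 9.94 and 9.70 on the mutant arrays and 9.55, 9.57 and 9.53 on the wild-type arrays. The wild-type values lay close together, with mutant replicate 1 below them and mutant replicates 2 and 3 above them. The means were 9.53 ± 0.512 in mutant and 9.55 ± 0.0206 in wild-type samples (SD, n = 3 each), and the difference was −0.018 (95% interval −0.63 to 0.60; limma adjusted p = 0.997). Its sign turned without mutant replicate 1, to 0.27 (−0.086 to 0.63), and it did not pass.

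The other Rarb probes did not follow that turn. All 3 are annotated to the same transcript, so they are repeat readings of the gene and not replicates of the condition. The next probe measured 8.76, 8.99 and 9.16 on the mutant arrays against 9.15, 9.39 and 9.07 on the wild-type arrays. This is a difference of −0.24, and −0.13 without mutant replicate 1. The dimmest of the 3 was at 4.84, 5.47 and 5.33 against 5.82, 5.05 and 5.47, a difference of −0.23, and −0.049 without that array. Mutant replicate 1 was the lowest array for all 3 Rarb probes, while the position of mutant replicates 2 and 3 relative to the wild-type arrays differed between probes.

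Rara, the most widely expressed of the retinoic acid receptors, was close to background, with 4.75, 5.54 and 5.31 on the mutant arrays and 5.30, 6.04 and 5.14 on the wild-type arrays. It was detected on 2 mutant and 3 wild-type arrays, mutant replicate 1 being the exception. The difference was −0.29 (95% interval −1.01 to 0.42; limma adjusted p = 0.997), or a ratio of 0.815 (0.495 to 1.34), and without mutant replicate 1 it was −0.070 (−0.74 to 0.60). Leaving out wild-type replicate 2, the highest array, brought it to −0.022. The wide interval leaves the size of any change in Rara poorly determined.

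Rarg is, in mouse embryos, the receptor of precartilage and skin. Of its 3 probes, 2 were detected on 2 arrays each and 1 on none. The probe with the highest mean gave deposited intensities of 131.0, 104.5 and 114.3 on the mutant arrays and 92.7, 98.7 and 114.2 on the wild-type arrays, where the median probe of an array lay between 97.7 and 109.8. It was detected on mutant replicate 1 and wild-type replicate 3. The probe detected on no array gave 102.2, 105.1 and 96.5 against 93.7, 91.1 and 100.3. Rarg was therefore not well above background on most arrays of either group, and no fold is given.

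The retinoid X receptors are the obligate partners of the retinoic acid receptors and of several other nuclear receptors. Rxrb, which is broadly expressed, measured 10.80, 10.65 and 10.40 on the mutant arrays and 10.66, 10.25 and 10.52 on the wild-type arrays with its brightest probe. The means were 10.62 ± 0.200 in mutant and 10.48 ± 0.205 in wild-type samples (SD, n = 3 each), a difference of 0.14 (95% interval −0.28 to 0.56; limma adjusted p = 0.997) and a ratio of 1.10 (0.822 to 1.48). Its 2 other probes pointed the other way, at −0.18 for both, and their limma adjusted p with every probe tested on its own was 0.998 for each. One of these 2 is annotated to another transcript record than the brightest probe. The probe of opposite sign on the same record measured 6.64, 7.10 and 7.14 against 7.32, 7.19 and 6.89, with mutant replicate 1 lowest, whereas that array was the highest for the brightest probe. Without mutant replicate 1 the 3 Rxrb probes stood at 0.051, −0.019 and −0.080, and without wild-type replicate 2 the brightest stood at 0.029.

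Rxrg is the family member with the most restricted expression, found in muscle and in parts of the nervous system. It measured 6.37, 5.25 and 4.98 on the mutant arrays and 5.35, 4.97 and 5.17 on the wild-type arrays. Mutant replicate 1 stood 1.22 above the mean of the other 5 arrays, which all lay between 4.97 and 5.35. A position at least as high on that array was held by 4.71% of all features. The means were 5.54 ± 0.735 in mutant and 5.16 ± 0.189 in wild-type samples (SD, n = 3 each), and the difference was 0.37 (95% interval −0.47 to 1.22; limma adjusted p = 0.997). Without mutant replicate 1 it was −0.046 (−0.47 to 0.38). Rxrg was detected on all 6 arrays but, outside mutant replicate 1, lay close to background. Its deposited intensities were 163.8, 120.4 and 117.7 on the mutant arrays and 121.6, 102.9 and 111.7 on the wild-type arrays. On mutant replicate 1 neural crest and Schwann markers stood 1.34 above the wild-type mean, over 2 measured genes of 5. Progenitor markers stood 1.39 above it, over 7 of 9, beside the blood, mesenchyme and endothelium medians above. Of the 2 crest genes, Sox10 was at 9.06 against a wild-type mean of 6.54, and Foxd3 at 4.87 against 4.72. Erbb3 of that list, and Olig2 and Pax6 of the progenitor list, were detected on no array. Mutant replicate 1 was highest for 6 of the 7 progenitor genes, but Sox2 was at 6.57 against a wild-type mean of 6.96. Of 6 muscle markers, Acta1 and Tnnt1 were detected on 6 arrays, Myog on 5 and Des on 3, while Myod1 and Myl1 were detected on none. The muscle list stood at 0.17 on mutant replicate 1, and summed to 235, 193 and 172 on the mutant arrays and 177, 182 and 204 on the wild-type arrays. The part of other cells in the Rxrg value was not tested.

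Rxra, the widely used partner in embryonic tissues, was detected on mutant replicate 3 and wild-type replicate 2 and on no other array. Its deposited intensities were 103.5, 105.4 and 118.0 on the mutant arrays and 92.6, 108.1 and 105.1 on the wild-type arrays, all near the array medians. The groups overlapped, and no fold is given.

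Cyp26b1 hydroxylates retinoic acid and so clears it. Its deposited intensities were 97.4, 106.3 and 106.3 on the mutant arrays and 98.4, 101.5 and 113.7 on the wild-type arrays, with detection p of 0.322, 0.1004 and 0.194 against 0.216, 0.0524 and 0.00962. It was thus detected on wild-type replicate 3 alone and was not well above background on any mutant array. Normalized means were 4.61 in mutant and 4.91 in wild-type samples. With 1 detected array of 6, no fold is given, and Cyp26b1 was not part of the test.

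**Figure D3:**
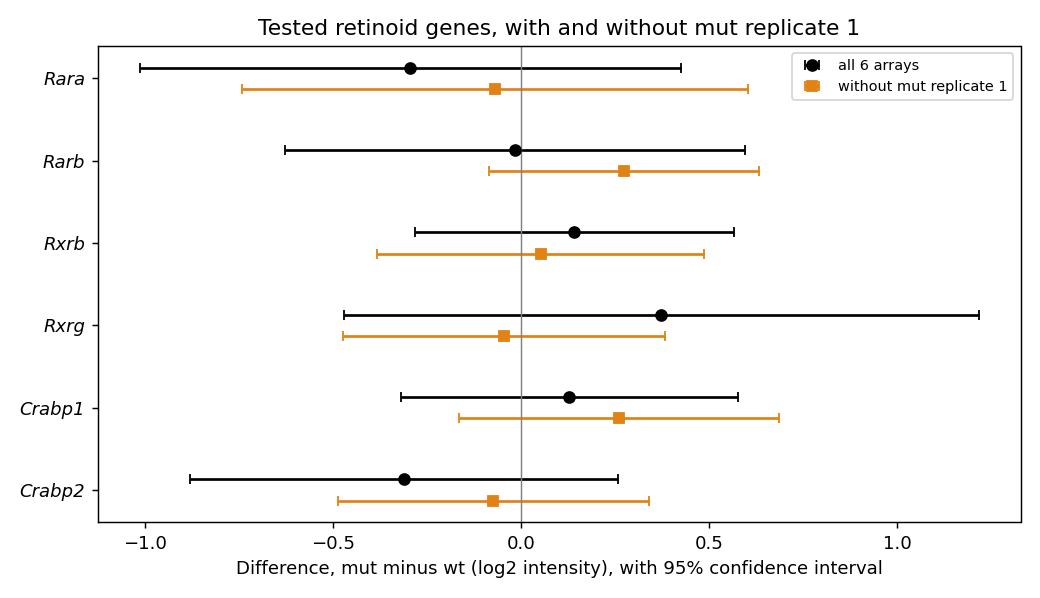
Differences in log2 intensity, mut minus wt, with 95% confidence intervals from limma for the 6 tested genes, over all 6 arrays (black circles) and without mutant replicate 1 (orange squares). Every interval includes 0, and the estimates of Rarb and Rxrg change sign between the fits, from −0.018 to 0.27 and from 0.37 to −0.046.

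No single array set the spread of all members. Mutant replicate 1 was the lowest array for 6 and the highest for 2 of the 10 member probes detected on at least 3 arrays, and the highest or lowest for 5 of the 6 tested genes, beside 61.4% of all features. Relative to the mean of the other 5 arrays it was at −0.76 for Crabp2, −0.71 for Rara and −0.70 for the brightest Rarb probe, while Crabp1 was at −0.23 and the brightest Rxrb probe at 0.30. Other arrays were the extremes elsewhere: wild-type replicate 2 was the highest array for Rara, at 6.04, and the lowest for Rxrb, at 10.25, and mutant replicate 2 was the highest for Crabp1, at 11.59. The SD within the mutant group ran from 0.200 for Rxrb to 0.735 for Rxrg, and within the wild-type group from 0.0206 for Rarb to 0.482 for Rara.

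For each tested member the named gene with the most similar profile over the 6 arrays was taken by Pearson correlation of log2 intensities, as a description. With 6 arrays very high values are common: between 50 and 911 of 10437 named genes had an r over 0.9 with a given member. The closest genes were Cactin for Crabp1 (r = 0.986), Pou2f2 for Crabp2 (r = 0.995), Mapt for Rara (r = 0.992), Lingo1 for Rarb (r = 0.998), Stard9 for Rxrb (r = 0.997) and Ifitm2 for Rxrg (r = 0.9997). The largest number of genes over 0.9, 911, was that of Rxrg, the tested member that stood furthest above the other arrays on mutant replicate 1. Without that array these 6 correlations ran from 0.974 for Crabp2 to 0.997 for Rxrg, over 5 arrays.

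The rest of the pathway was described through 6 lists that hold 69 other genes, of which 62 were on the array and 34 were measured. None passed the test, in either direction, among uptake and storage, synthesis, the other Cyp26 enzymes, coregulators, other receptors that pair with RXR, and known targets. Of the 34, 15 were higher and 19 lower in mutant samples, with a median difference of −0.074, and 1 had an unadjusted p under 0.05. Without mutant replicate 1, 18 were higher and 16 lower, with a median of 0.022, and 0 passed.

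Genes that supply the ligand were mostly at background. The retinol dehydrogenase gene Rdh10, the transport protein gene Rbp4 and the aldehyde dehydrogenase gene Aldh1a1 were detected on no array, and the retinol receptor gene Stra6 on at most 2. Of 15 synthesis genes 7 were measured, 4 higher and 3 lower, with a median of 0.0041. Leaving out mutant replicate 1 made this 1 higher and 6 lower, with a median of −0.075. Aldh1a2, which encodes the main enzyme that makes retinoic acid in the embryonic trunk and is singled out here after its values were seen, was at 6.87, 5.02 and 4.59 on the mutant arrays and 4.45, 5.39 and 5.40 on the wild-type arrays. It was highest on mutant replicate 1, and its difference of 0.41 (95% interval −1.003 to 1.82) became −0.28 without that array. Rdh1, a retinol dehydrogenase gene, was lower on all 3 mutant arrays, at 5.13, 4.80 and 4.95 against 5.15, 5.46 and 5.66. Its difference of −0.46 (−0.90 to −0.024) did not pass, with a limma adjusted p of 0.997, and it was detected on 2 mutant and 3 wild-type arrays. It was −0.55 without mutant replicate 1. The short-chain dehydrogenase gene Dhrs4 was at 6.22, 5.47 and 6.19 against 5.59, 5.61 and 5.57, a difference of 0.37 (−0.16 to 0.90) that became 0.24 without mutant replicate 1, with its other probe at −0.072. Among uptake and storage genes, 4 of 10 were measured, 3 higher and 1 lower both with and without mutant replicate 1, with medians of 0.14 and 0.063. Dgat1, an acyltransferase gene, was at 0.19 over all arrays and at 0.020 without that array. Fabp5, a fatty acid binding protein gene whose product can also carry retinoic acid, was at 0.095 and 0.16. Of the degrading enzymes besides Cyp26b1, Cyp26a1, whose DR5 element is shown above, had 2 probes and neither was detected on more than 1 array.

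Coregulators join the receptor pair to the transcription machinery. Of 16 such genes 10 were measured, 4 higher and 6 lower, with a median of −0.052. When mutant replicate 1 was left out, 9 were higher and 1 lower, with a median of 0.081. Of all features 47.4% were higher over all arrays and 51.1% without that array. Crebbp, 1 of the 10, was read by a different probe in the 2 fits, at −0.46 and 0.20. The Mediator subunit gene Med1 was at 8.47, 8.36 and 8.65 on the mutant arrays and 8.32, 8.46 and 8.13 on the wild-type arrays, differing by 0.19 (95% interval −0.19 to 0.57), and its 2 other probes were at −0.0085 and −0.56. The acetyltransferase gene Ep300 was at 8.39, 9.94 and 9.88 against 10.03, 9.82 and 9.80, low on mutant replicate 1 alone. Its difference was −0.48 with that array and 0.023 without it, and its 2 other probes were at −0.36 and −0.025. Among 3 measured partners of RXR, the orphan receptor gene Nr4a2 was at −0.36 and the fatty acid sensor gene Ppard at 0.57. Both changed sign without mutant replicate 1, to 0.047 and −0.28.

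Known targets of retinoic acid were measured for 10 of 16 genes, 3 higher and 7 lower in mutant samples with a median of −0.15, and again 3 and 7 without mutant replicate 1 with a median of −0.078. The share of higher features among all tested was 47.4% over all arrays and 51.1% without that array. The homeobox gene Meis2, a Hox cofactor, had the smallest unadjusted p of the list, with 12.08, 13.15 and 12.93 on the mutant arrays against 12.91, 13.51 and 13.06 on the wild-type arrays. Its difference was −0.44 (95% interval −1.18 to 0.29) and −0.12 without mutant replicate 1, and its 3 other probes were at −0.30, −0.20 and 0.073. Tgm2, which encodes a transglutaminase and is a classical retinoid-responsive gene, was at 9.92, 5.11 and 4.84 against 4.94, 5.01 and 5.20. Only mutant replicate 1 stood out, and the difference of 1.57 (−1.42 to 4.56) became −0.076 without it. Tgm2 is also expressed by endothelium, whose markers stood 2.59 above the wild-type mean on the same array, and their part in the Tgm2 value was not tested.

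**Figure D4:**
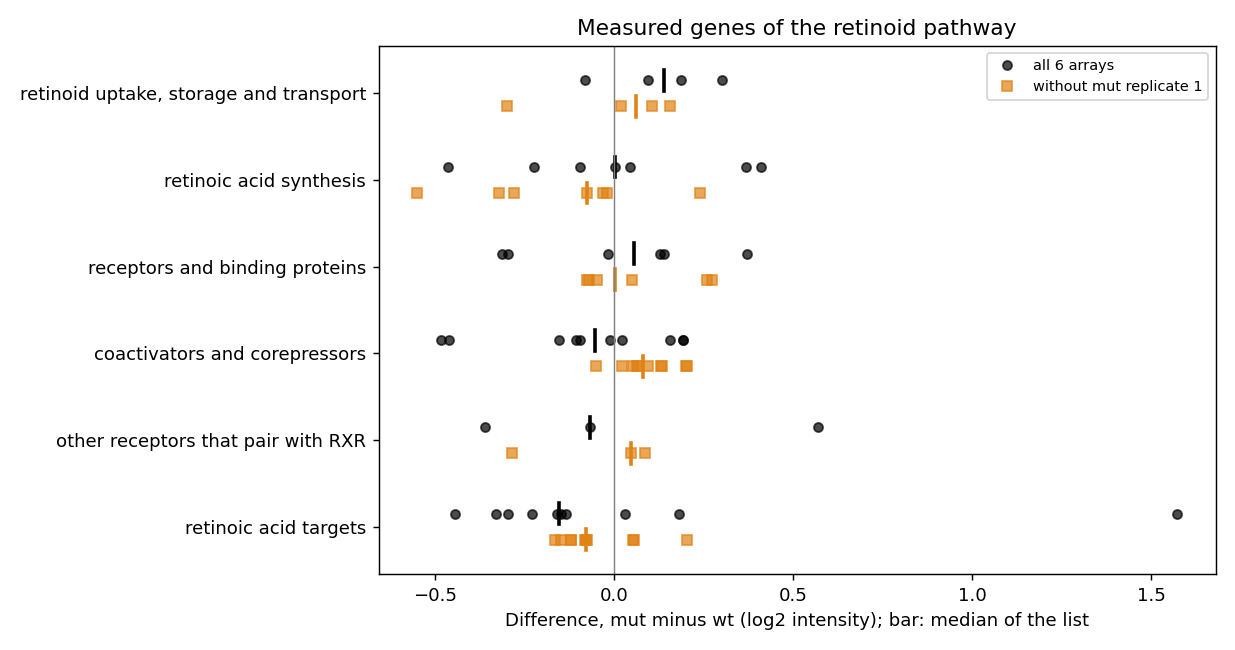
Each point is a measured gene of a list, placed by its difference in log2 intensity, mut minus wt, over all 6 arrays (black circles) or without mutant replicate 1 (orange squares), and bars mark list medians. The point at 1.57 is Tgm2, which moves to −0.076 without mutant replicate 1.

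Genes that share the DR5 element with Rarb were looked at as a list defined by sequence, after the values were known. Of 31 genes with the element in a promoter window, 9 were on the array and 6 were measured, and 0 passed. An unadjusted p under 0.05 was found for 2 of the 6, Tnfsf13b (0.0094) and Cfap45 (0.048), against 1.83% of all features, and the limma adjusted p of all 6 was over 0.05. Among the genes with repeats spaced by 1 or 2 bases, 22 and 3 were measured, and 0 of each had an unadjusted p under 0.05. The differences of the 6 genes with the DR5 element were −0.74 for the cytokine gene Tnfsf13b, −0.018 for Rarb and 0.27 for Ppbp. Blvrb was at 0.48, Cfap45 at 0.72 and the embryonic globin gene Hbb-y at 1.43. In the fit without mutant replicate 1 the differences were −0.64 for Tnfsf13b, 0.27 for Rarb and −0.29 for Blvrb. Cfap45 was then at 0.48 and Hbb-y at −0.083, while Ppbp was no longer measured. Hbb-y is itself in the blood marker list, which was high on that array, and Blvrb encodes a biliverdin reductase abundant in red cells. On the wild-type arrays Hbb-y was at 12.33, 9.57 and 9.55, against 10.26 and 10.53 on mutant replicates 2 and 3. The part of blood cells in these values was not tested.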

How the data were processed

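Intensities and detection p-values were used as the authors deposited them: per the file headers, each array has a linear intensity and a detection p-value for every probe. The labels name an Illumina TotalPrep kit for RNA amplification and no scanner software. The authors' deposited normalized intensities were an alternative, and quantile normalization of the first table matched them within 1.48%. With limma 3.58.1 in R 4.3.3, background was corrected by normexp from the detection p-values (offset 16), followed by log2 and quantile normalization. Probes detected at p under 0.05 on at least 3 arrays were kept (19735 of 45281), and the brightest probe stood for a gene (13638 features). The arrays detected 19307 to 20307 probes each. Groups were compared with lmFit and eBayes across all features, with Benjamini-Hochberg adjustment. Of the probes 34885 had 1 symbol, 18 several and 10378 none. The fit was tested on simulated data with independent noise and no outlying array. That test therefore does not cover an array that stands apart, as in these data.

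The members, lists and marker genes were chosen with earlier results of these data known. The genes named are the members, the 2 genes of each pathway list with the smallest unadjusted p, the closest profile to each tested member, and the Hox5 genes. The alternatives were no background correction, an offset of 50, cyclic loess, the authors' values, no filter, a filter on all 6 arrays, every probe alone, an intensity trend with robust variance, a replicate block, and leaving out each array or both arrays numbered 1. Promoter sequences are those of RefSeq, matched by symbol.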

Additional observations from a re-analysis of the deposited data

How the results depend on the processing

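Under every alternative run, 0 members passed with limma, and over all features 0 to 1 passed when arrays were left out one at a time, the 1 being Cops8 without mutant replicate 3, named after its value was seen. In the analysis as reported, 250 features fell under an unadjusted p of 0.05 and the lowest limma adjusted p was 0.177, while the other settings on all 6 arrays gave 160 to 829 features and lowest adjusted p from 0.111 to 0.955. Rara, Rxrb, Crabp1 and Crabp2 kept their sign under every alternative in which they were tested, but not their size: leaving out each array gave −0.48 to −0.022 for Rara, 0.029 to 0.25 for Rxrb, 0.0056 to 0.26 for Crabp1 and −0.51 to −0.074 for Crabp2. With cyclic loess Rarb was at 0.018. Leaving out both arrays numbered 1 turned the sign of Rarb to 0.28, Dgat1 to −0.042, Ep300 to 0.098, Nr4a2 to 0.018, Ppard to −0.019, Tgm2 to −0.13, Aldh1a2 to −0.58 and Blvrb to −0.12. Leaving out each array in turn gave −0.22 to 0.27 for Rarb, −0.046 to 0.65 for Rxrg, −0.75 to 0.023 for Ep300, −0.62 to 0.047 for Nr4a2, −0.28 to 1.08 for Ppard, −0.076 to 2.46 for Tgm2, −0.28 to 0.86 for Aldh1a2, −0.29 to 0.88 for Blvrb and −0.083 to 2.36 for Hbb-y. These 9 are the tested genes named here whose sign turned when a single array was left out, in each case mutant replicate 1. That its value was an end of each range follows from this choice. The values did not settle whether replicate numbers pair the samples. Deviations of same-numbered arrays correlated at 0.32, 0.013 and 0.10, and those of differently numbered arrays at −0.46 to 0.39. With the replicate block 0 features and 0 members passed. Signal over background limits Rarg, Rxra, Cyp26b1, Rara and Rxrg.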
